A study of Homo sapiens with 19 samples.

Results

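The KSUAT elements are a class of DNA test sequences carried on reporter plasmids in K-562 cells, an established human chronic myeloid leukaemia line of erythroid character. They were taken as the rows whose name is KSUAT, 4 digits and an orientation, .fwd or .rev, without the suffix that marks a substituted version. There were 131 such names among 3422 element names in all, from 66 numbered loci, of which 65 had both orientations (66 fwd and 65 rev names). What the letters of the class name stand for is not given in the sources used here, and neither the sequences nor the genomic positions of these elements were used here, so they are described by name and value.

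QUASARR-seq measured each element in 2 roles from the same plasmid. The promoter barcode (paBC) counts transcripts that start from the element itself, called here the promoter read-out, and the enhancer barcode (eaBC) counts transcripts from a minimal promoter elsewhere on the plasmid, called here the enhancer read-out. A first plasmid pool, set 1, carried the minimal promoter pMYC. A second pool, set 2, carried pMYC, pGAPDH and pAPOBEC3F, named after the genes MYC, GAPDH and APOBEC3F, and the libraries of set 2 hold all 3. Each pool was electroporated into K-562, with 20 µg of plasmid library per electroporation, and the cells were harvested after 6 hours. There were no other genotypes or treatments. For each pool and barcode, 2 RNA libraries and 2 plasmid DNA libraries extracted from the cells were analysed, 16 libraries in all. The labels number these libraries 1 and 2 without saying whether the numbers mark separate days or repeats of a day, so the p-values measure the spread between these libraries, which may be technical. The assay reads plasmids present for hours, not the elements in their chromosomal place, and it reads them in 1 cell line.

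A promoter is the DNA from which transcription starts, and an enhancer raises transcription from a promoter at a distance. Many active enhancers are themselves transcribed from both strands, and many promoters can act on other promoters, so the activities overlap. Enhancers have classically been described as acting in either orientation, whereas transcription from a core promoter has a direction. A minimal promoter is a short core that gives little transcript alone, and GAPDH is a broadly transcribed housekeeping gene while MYC encodes a growth-regulating transcription factor and APOBEC3F a cytidine deaminase that restricts retroviruses.

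The activity of an element was the log2 ratio of its RNA value over its DNA value in libraries of the same number. Zero on this scale is where the authors' scaling of each library put it. It does not mark equal RNA and DNA, and levels are not comparable between tables that were scaled separately. SDs are taken over the same-numbered ratios or differences. The labels do not say that the numbers pair RNA with DNA. An SD can therefore be smaller or larger than the standard error of the test. An element was called higher or lower where limma, fitted over every element of its table with at least 10 DNA reads in both DNA libraries, gave a Benjamini-Hochberg adjusted p under 0.05. Of the 131 names, 119 were measured in set 1. In set 2, 104 were measured with pMYC, 129 with pGAPDH and 116 with pAPOBEC3F. The filter on DNA reads removed members only from the enhancer read-out with pMYC of set 2, where 102 passed. In all 8 tables together 87 members passed. Depth differed between read-outs: the median member had 4566 to 5210 reads per library in the promoter read-out of set 1 and 641 to 1364 in its enhancer read-out. In set 2 the thinnest values were those of enhancer RNA with pAPOBEC3F (medians of 54.5 and 62 reads) and with pMYC (93 and 103.5), against 611 and 670 with pGAPDH.

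In the promoter read-out most KSUAT elements stood above the authors' zero and above the median element of their table. In set 1 the median member stood at 2.67 on the log2 scale, a 6.37-fold scaled ratio, where the median of all elements was 0.38. The medians of the single replicates were 2.78 and 2.58. Of the 119 members, 113 were called higher and 3 lower, against 55.7% of all elements called higher and 25.7% called lower. With pMYC in set 2 the median was 2.02 (all elements 0.24), and 90 of 104 members were called higher and 5 lower, against 51.6% and 27.7% of all elements. With pAPOBEC3F the median was 2.68 (all elements 0.23), and 102 of 116 were called higher and 6 lower, against 50.5% and 30% of all elements. With pGAPDH the median member was at 0.44, against -0.07 for all elements. There 89 of 129 members were called higher and 24 lower, where 36.4% of all elements were called higher and 46.9% lower. In unscaled reads of the same libraries the median member was at 1.10 with pGAPDH and 0.11 with pMYC, over 103 members. The medians of all elements were 0.63 and -1.65 there. Centring each library on its median element moves the zero point by 0.67 in set 1, 0.52, 0.66 and -0.07 in the pMYC, pAPOBEC3F and pGAPDH tables of set 2. With that zero the members' medians were 2.00, 1.51, 2.02 and 0.51. In set 1, 102 members were then called higher and 14 lower (41.5% and 53.1% of all elements), with pMYC of set 2 79 and 10 (34.7% and 53.7%), with pAPOBEC3F 96 and 16 (36.6% and 55%) and with pGAPDH 95 and 19 (41.7% and 41.2%).

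In the enhancer read-out the libraries were scaled separately, so the ratios are not compared in level with those of the promoter read-out. The median member of set 1 was at 1.12, 2.17-fold, with 110 of 119 called higher and 1 lower (54.2% and 11.3% of all elements). With pMYC in set 2 it was at 0.75, with 74 of 102 higher and 1 lower (39.6% and 7.47% of all). With pAPOBEC3F it was also at 0.75, with 74 of 116 higher and 0 lower by limma (28.9% and 7.47% of all). At an unadjusted p under 0.05 the count of lower members there was also 0. The median member under pGAPDH was at 0.15, a 1.11-fold ratio, and 47 of 129 were called higher and 14 lower, against 23.6% and 19.5% of all elements. Without RNA library 1 of the enhancer read-out, the count called higher under pGAPDH was 22. Centred on the median element, whose shift was 0.56, 0.34, 0.25 and 0.03 in these 4 tables, 83 members of set 1 were called higher and 16 lower (33.7% and 56.4% of all elements). With pMYC of set 2 the centred counts were 53 and 12 (24.3% and 35.1%), with pAPOBEC3F 56 and 9 (20.2% and 26.5%) and with pGAPDH 43 and 14 (21.7% and 23.8%). The centred medians were 0.56, 0.41, 0.50 and 0.12. The split of higher against lower calls thus moved with the zero point in both read-outs.

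Within each table the class lay in the upper part of the range. The median percentile rank of a member among all elements was 84.4 in the promoter and 76.2 in the enhancer read-out of set 1. In set 2 these ranks were 86.0 and 78.7 with pMYC, 82.8 and 72.6 with pGAPDH, and 86.0 and 81.4 with pAPOBEC3F. Of the classes whose names differ by 1 letter, KSSAT elements ranked higher at the median, at 90.1 and 82.2 in set 1 and 91.8 and 86.7 with pAPOBEC3F. KUUAT elements ranked lower, at 46.0 and 46.3 in set 1 and 45.3 and 45.1 with pAPOBEC3F, and so did KSUUT elements, at 51.4 and 50.6 in set 1 and 52.5 and 50.3 with pAPOBEC3F. Elements of a class are not replicates, and these ranks carry no test. The class was not uniform: in the promoter read-out of set 1 its members ran from -0.68 to 5.32, with quartiles at 1.70 and 3.54. Of its 119 members 39 were among the top 10% of all elements there. As enhancers the quartiles were 0.60 and 1.68, and 14 members were in the top 10%.

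The highest members recurred across tables. In the promoter read-out of set 1 KSUAT0092.fwd led with ratios of 5.36 and 5.27, followed by KSUAT0058.fwd with 5.12 and 5.02 and KSUAT0078.rev with 5.07 and 4.86. KSUAT0052.rev gave 5.04 and 4.84 there, and KSUAT0042.rev 4.64 and 4.46. With pAPOBEC3F KSUAT0058.fwd (5.28 and 5.17), KSUAT0092.fwd (5.25 and 5.16), KSUAT0023.rev (5.09 and 4.95), KSUAT0078.rev (5.02 and 4.82) and KSUAT0042.rev (4.73 and 4.67) led. In set 1 KSUAT0092.fwd stood clear of the rest, KSUAT0058.fwd, KSUAT0078.rev and KSUAT0052.rev overlapped, and KSUAT0042.rev lay below them. With pAPOBEC3F KSUAT0058.fwd overlapped KSUAT0092.fwd, and KSUAT0023.rev overlapped KSUAT0078.rev. With pMYC in set 2 KSUAT0005.rev was first at 4.55 and 4.10 from 286 DNA reads, the widest replicate gap among the 5 highest. It overlapped KSUAT0058.fwd at 4.35 and 4.24 and KSUAT0023.rev at 4.14 and 4.03, and KSUAT0001.rev (4.03 and 4.02) and KSUAT0078.rev (4.01 and 4.01) followed. Under pGAPDH the top of the class was KSUAT0058.fwd, at 2.05 and 1.97 on that table's own zero. KSUAT0005.rev (1.99 and 1.71) and KSUAT0078.rev (1.81 and 1.87) were next. These ratios cannot be set as levels against those with the other minimal promoters. In reads of the same library 90 of 103 members were called higher with pGAPDH than with pMYC, as were 97.5% of all elements. KSUAT0023.rev (1.83 and 1.76) and KSUAT0092.fwd (1.79 and 1.76) completed the 5.

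The leaders of the enhancer read-out were mostly .rev elements. In set 1 KSUAT0023.rev was highest at 3.07 and 3.03, clear of KSUAT0040.rev at 2.82 and 2.76 and KSUAT0092.fwd at 2.73 and 2.84. KSUAT0083.rev gave 2.64 and 2.63, and KSUAT0058.fwd 2.54 and 2.51. With pMYC in set 2 KSUAT0083.rev (2.77 and 2.96) and KSUAT0001.rev (2.86 and 2.86) overlapped at the top, ahead of KSUAT0023.rev (2.48 and 2.32), KSUAT0035.rev (2.53 and 2.21) and KSUAT0040.rev (2.24 and 2.20). With pAPOBEC3F KSUAT0083.rev (2.92 and 2.90) and KSUAT0001.rev (2.99 and 2.76) again overlapped. They were followed by KSUAT0040.rev (2.60 and 2.44), KSUAT0016.rev (2.23 and 2.57) and KSUAT0023.rev (2.22 and 2.17). Under pGAPDH the enhancer ratios were small on that table's own zero, though not in reads of the same library, as compared below. KSUAT0092.fwd reached 1.07 and 1.04 from only 21 DNA reads, and it was the only member at 1 or more. KSUAT0005.rev (0.91 and 0.85), KSUAT0023.rev (0.65 and 0.62), KSUAT0040.rev (0.74 and 0.46) and KSUAT0083.rev (0.60 and 0.60) came next. The members' enhancer ratios ran from -0.21 to 3.05 in set 1 and from -0.40 to 1.06 under pGAPDH.

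At the other end the same few loci returned. KSUAT0153.rev was the lowest member of the promoter read-out in set 1, at -0.54 and -0.82. It was also the lowest with pAPOBEC3F, at -0.78 and -0.88, and with pMYC in set 2 it gave -1.28 and -1.09. All these values were called lower. KSUAT0140.rev gave -1.86 and -2.16 with pMYC in set 2, from 36 RNA reads, and -1.29 and -1.13 with pGAPDH from 1311. It is 1 of the 12 members not measured in set 1. KSUAT0140.fwd gave -0.57 and -0.43 with pMYC. KSUAT0138.rev was low in set 1, at -0.58 and -0.49, and lowest of the class under pGAPDH, at -1.38 and -1.10. KSUAT0106.fwd followed there at -1.05 and -1.03. KSUAT0151.fwd was called lower in set 1, at -0.30 and -0.08 (limma, adjusted p = 0.049), and gave -0.40 and -0.48 with pAPOBEC3F, where KSUAT0136.fwd gave -0.73 and -0.49.

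Outside pGAPDH few members were called lower as enhancers. In set 1 KSUAT0014.fwd was the 1 member called lower, at -0.16 in both replicates (limma, adjusted p = 0.036). KSUAT0106.rev at -0.36 and -0.06 and KSUAT0151.fwd at -0.06 and -0.22 did not pass the test. With pMYC in set 2 KSUAT0140.fwd, at -0.78 and -1.07 from 19 RNA reads, was called lower. KSUAT0140.rev (-0.72 and -0.01) and KSUAT0151.fwd (-0.35 and -0.25) were not. With pAPOBEC3F the lowest members rested on very few RNA reads and their replicates disagreed: KSUAT0024.rev gave 0.10 and -1.49 from 26 reads and KSUAT0040.fwd 0.03 and -1.21 from 13. KSUAT0106.fwd gave -0.28 and -0.62 from 24. None of these passed the test. Under pGAPDH KSUAT0140.rev (-0.45 and -0.36), KSUAT0106.rev (-0.29 and -0.32) and KSUAT0029.fwd (-0.13 and -0.37) were called lower.

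Across all 8 tables, with the authors' zero, 31 of the 87 members measured throughout were called higher every time. Over all elements measured throughout this was so for 164 of 1052. There were 59 members called higher in every promoter table (28.9% of all elements measured throughout) and 32 in every enhancer table (16.8%). The 2 members never called higher were KSUAT0151.fwd and KSUAT0153.rev, and the share over all elements is not given here. These counts over tables were not repeated with centred libraries. Centring moved the calls of single tables, as in the enhancer read-out of set 1 from 110 higher and 1 lower to 83 and 16. Over all elements the centred calls there were 33.7% higher and 56.4% lower. With the authors' zero, a lower call in at least 1 table was made for 22 members, 25.3% against 57.1% of all elements. Lower calls under pGAPDH alone were made for 16 members (18.4%, against 14.8% of all). The 5 members with the highest mean rank over the 8 tables were all .rev elements. KSUAT0058.fwd came next at 96.6, close to KSUAT0078.rev at 96.7. The share of .rev among the leaders of all elements is not given here. KSUAT0023.rev had a mean rank of 98.0, and its promoter ratios were 4.54 and 4.37 in set 1, 4.14 and 4.03 with pMYC in set 2, 1.83 and 1.76 with pGAPDH and 5.09 and 4.95 with pAPOBEC3F. Its enhancer ratios in the same order were 3.07 and 3.03, 2.48 and 2.32, 0.65 and 0.62, and 2.22 and 2.17. Its replicates differed most in the promoter read-out of set 1, and its rank never left the range from 95.2 to 99.2.

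KSUAT0083.rev (mean rank 97.4) gave promoter ratios of 4.34 and 4.13, 3.90 and 4.01, 1.63 and 1.59, and 4.74 and 4.54 in that order of tables, and enhancer ratios of 2.64 and 2.63, 2.77 and 2.96, 0.60 and 0.60, and 2.92 and 2.90. Unlike those of KSUAT0023.rev, its enhancer ratios were no lower with pMYC of set 2 than in set 1. The sets were scaled separately, so these levels are not comparable. KSUAT0040.rev (97.2) gave promoter ratios of 4.54 and 4.32, 3.68 and 3.84, 1.47 and 1.36, and 4.70 and 4.21, and enhancer ratios of 2.82 and 2.76, 2.24 and 2.20, 0.74 and 0.46, and 2.60 and 2.44. KSUAT0001.rev (96.9) gave promoter ratios of 4.37 and 4.15, 4.03 and 4.02, 1.42 and 1.25, and 4.46 and 4.37. Its enhancer ratios were 2.48 and 2.55, 2.86 and 2.86, 0.53 and 0.53, and 2.99 and 2.76. KSUAT0078.rev (96.7) led more in the promoter than in the enhancer read-out, with 5.07 and 4.86, 4.01 and 4.01, 1.81 and 1.87, and 5.02 and 4.82 against 2.46 and 2.14, 1.90 and 1.96, 0.68 and 0.41, and 1.82 and 1.71. Each of these 5 members was called higher in all 8 tables.

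The middle of the class is shown by KSUAT0071.rev, KSUAT0129.fwd and KSUAT0001.fwd, whose mean ranks were 77.6, 77.5 and 77.5. KSUAT0071.rev gave 2.33 ± 0.09 (SD, n = 2) in the promoter and 0.79 ± 0.08 in the enhancer read-out of set 1, and 0.44 ± 0.04 and 0.15 ± 0.10 with pGAPDH. KSUAT0129.fwd gave 2.33 ± 0.03 and 0.73 ± 0.03 in set 1. KSUAT0001.fwd, whose .rev partner is among the highest, gave 2.84 ± 0.10 and 0.85 ± 0.12 in set 1 and -0.02 ± 0.17 in the enhancer read-out of pGAPDH. At the bottom KSUAT0151.fwd (mean rank 18.1) was below 0 in every replicate of every table. Its promoter ratios were -0.30 and -0.08 in set 1, -0.77 and -0.16 with pMYC, -0.57 and -0.57 with pGAPDH and -0.40 and -0.48 with pAPOBEC3F. Its enhancer ratios were -0.06 and -0.22, -0.35 and -0.25, -0.17 and -0.33, and -0.25 and -0.33, and it was called lower in 5 of the 8 tables.

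KSUAT0153.rev (mean rank 24.6) was called lower in all 4 promoter tables, where its ratios with pGAPDH were -0.81 and -0.74. In the enhancer tables it sat near zero, with 0.06 and -0.02 in set 1, 0.09 and -0.04 with pMYC, 0.08 and 0.14 with pGAPDH and 0.05 and -0.31 with pAPOBEC3F, none of them called. KSUAT0106.rev (32.5) showed the reverse order. Its promoter ratios were 1.37 and 0.98 in set 1, 0.48 and 0.47 with pMYC and 1.11 and 0.93 with pAPOBEC3F, all called higher, and -0.58 and -0.61 with pGAPDH, called lower. Its enhancer ratios were below 0 in all 8 replicate values, at -0.36 and -0.06, -0.25 and -0.26, -0.29 and -0.32, and -0.16 and -0.41, of which only those with pGAPDH passed the test (adjusted p = 0.0072). KSUAT0136.fwd (37.6) and KSUAT0153.fwd (38.1) were called higher in 2 and 1 tables and lower in 2 and 1.

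Members ordered alike in the promoter and enhancer read-outs, least so under pGAPDH. As a description across members, which share libraries and depth, Pearson's r between the read-outs was 0.882 (n = 119) in set 1, 0.859 (n = 102) with pMYC of set 2, 0.754 (n = 116) with pAPOBEC3F and 0.578 (n = 129) with pGAPDH. Spearman's rho was 0.881, 0.870, 0.805 and 0.555. Over all elements r was 0.854, 0.839, 0.768 and 0.617, close to the members' values and in the same order. Between replicates of the enhancer read-out the members' r was 0.977, 0.905, 0.827 and 0.728 in that order. How far the noise and narrow range with pGAPDH lower its r between read-outs was not tested. Called higher in both read-outs were 106, 74, 74 and 44 members in that order (49.2%, 36.9%, 27.6% and 19.4% of all elements). Called higher as promoters alone were 7, 15, 28 and 45 (6.74%, 14.9%, 22.7% and 17.1% of all), and as enhancers alone 4, 0, 0 and 3 (5.04%, 2.67%, 1.31% and 4.18% of all). The read-outs were normalized separately, so positions are compared by rank within each table. KSUAT0106.rev stood at rank 65.1 as a promoter and 10.4 as an enhancer in set 1, and at 59.1 and 13.3 with pMYC in set 2. KSUAT0014.fwd stood at 52.0 and 14.3 in set 1. With pMYC of set 2 KSUAT0005.fwd (82.4 and 50.1) and KSUAT0037.fwd (82.9 and 52.0) were next. With pGAPDH KSUAT0029.fwd ranked 93.3 as a promoter and 13.7 as an enhancer, from 929 RNA reads in the latter. KSUAT0083.fwd (84.0 and 18.8) and KSUAT0040.fwd (83.5 and 20.0) had the same pattern there, with enhancer ratios of -0.17 and -0.24 and of -0.17 and -0.23. The .rev partners of these latter 2 loci ranked 94.8 and 94.9 in that enhancer table. With pAPOBEC3F KSUAT0040.fwd (89.5 and 5.82) and KSUAT0024.rev (86.4 and 3.92) had the widest gaps, on the 13 and 26 enhancer RNA reads given above, and they also had the widest rank range over the 8 tables, 83.7 and 84.9.

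In the other direction the loci 0138, 0145 and 0153 recurred. KSUAT0138.rev ranked 10.8 as a promoter and 51.2 as an enhancer in set 1, and KSUAT0138.fwd 31.0 and 61.4. KSUAT0138.fwd had the same order with pGAPDH (9.95 and 62.8) and pAPOBEC3F (32.6 and 66.6). KSUAT0153.rev ranked 6.52 and 33.6 in set 1, 2.26 and 35.8 with pMYC of set 2, 11.5 and 68.3 with pGAPDH and 8.51 and 30.2 with pAPOBEC3F. KSUAT0145.rev ranked 24.5 and 43.9 with pMYC of set 2 and 32.0 and 50.3 with pAPOBEC3F, and KSUAT0136.fwd 38.0 and 64.1 with pMYC. KSUAT0045.fwd had the widest gap of this kind, 23.1 against 90.7 with pGAPDH, from promoter ratios of -0.50 and -0.48 and enhancer ratios of 0.43 and 0.45. The latter rest on 46 DNA reads and did not pass the test.

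Orientation changed the promoter read-out of most KSUAT loci. The test compared the .fwd with the .rev element of a locus within each library, so that the library's scaling cancels. In set 1, 51 of 59 loci differed, 24 with .fwd higher and 27 with .rev higher, where 72.9% of all loci with both orientations differed (52.6% with .fwd and 20.4% with .rev higher). With pMYC in the second pool, 35 of 43 loci differed, 17 with .fwd and 18 with .rev higher, against 62.6% of all loci (39.9% and 22.7%). With pGAPDH the count was 51 of 63 (24 and 27), against 72.1% of all loci (39.7% and 32.3%). With pAPOBEC3F it was 41 of 53 (20 and 21), against 57.2% (35.6% and 21.6%). The shares of loci called were thus near those of all loci with pGAPDH and above them elsewhere, with no test of that difference. KSUAT loci had nearly as many calls in either direction, whereas among all loci .fwd was more often the higher. The size of the difference, sign aside, had a median of 0.88 in set 1, a 1.85-fold ratio, where the median of all loci was 0.39. With pMYC and pAPOBEC3F in set 2 it was 0.90 and 0.86 (all loci 0.39 and 0.41), and with pGAPDH 0.37 (all loci 0.32). A difference of at least 1 log2 unit was called for 26 of the 59 loci in set 1 (12.1% of all loci), 17 of 43 with pMYC of set 2 (12.1%), 10 of 63 with pGAPDH (6.81%) and 22 of 53 with pAPOBEC3F (13.9%).

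As enhancers fewer KSUAT loci differed by orientation. In set 1, 28 of 59 did, 10 with .fwd and 18 with .rev higher, against 28.1% of all loci (8.28% and 19.8%). Without DNA library 1 of that read-out the count was 18. With pMYC of set 2 the count was 9 of 41 (1 and 8), against 13.5% of all loci (4.76% and 8.78%), and 17 without RNA library 1. With pGAPDH it was 12 of 63 (1 and 11), against 17.1% (3.65% and 13.4%). There it was 2 without RNA library 1, 3 without RNA library 2 and 19 without DNA library 1. With pAPOBEC3F it was 8 of 53 (1 and 7), against 5.02% (2.04% and 2.98%). There it was 4 and 3 without DNA library 1 and 2, and 23 and 21 without RNA library 1 and 2. The set 2 counts are therefore loose. The median size of the difference was 0.24, 0.25, 0.15 and 0.34, against 0.16, 0.24, 0.15 and 0.26 over all loci. Both orientations of a locus were called higher in RNA over DNA as enhancers at 51 of 59 loci in set 1 (43.3% of all loci), 27 of 41 with pMYC (29.8%), 12 of 63 with pGAPDH (14%) and 24 of 53 with pAPOBEC3F (20.9%). As promoters this held at 55 of 59 (43.4%), 34 of 43 (42.1%), 36 of 63 (23.8%) and 45 of 53 (44.4%).

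The largest .fwd preference was at KSUAT0092. In the promoter read-out of set 1 its .fwd element gave 5.36 and 5.27 and its .rev element 1.62 and 1.16, a difference of 3.93 ± 0.26 (SD, n = 2; adjusted p = 5.8e-07). The .rev element still made 825 RNA reads and was itself called higher in RNA over DNA. The difference was 1.59 ± 0.07 in the enhancer read-out of set 1. With pGAPDH it was 1.80 ± 0.04 as promoter. As enhancer it was 0.87 ± 0.04 there (limma, adjusted p = 0.015, with a standard error of 0.21 in the test). This was the 1 locus with .fwd called higher in the enhancer read-out of pGAPDH, and it rests on the 21 DNA reads of its .fwd element. KSUAT0015 differed by 2.28 and 2.34 in the promoter read-out of set 1 and by 2.44 and 2.48 with pAPOBEC3F, and KSUAT0058 by 2.10 and 2.07 in set 1 and by 2.51 and 2.17 with pMYC in set 2. KSUAT0082 differed by 2.14 and 2.19 with pMYC in set 2 and by 1.25 and 1.49 with pGAPDH.

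Larger .rev values in both read-outs marked another group. Among the 34 loci measured in both orientations in every table, KSUAT0001, KSUAT0023, KSUAT0040 and KSUAT0083 had .rev called higher in all 8 tables, and no locus had .fwd called higher in all 8. Over all 452 such loci 9 had .rev and 2 had .fwd called higher in all 8. At KSUAT0083 the .fwd minus .rev difference was -1.10 ± 0.07 (SD, n = 2) as promoter and -1.95 ± 0.18 as enhancer in set 1. In set 2 it was with pMYC -1.47 ± 0.10 and -2.48 ± 0.08, and with pGAPDH it was -1.13 and -1.14 in the promoter replicates and -0.80 ± 0.05 as enhancer. At KSUAT0001 it was -1.42 ± 0.06 and -1.67 ± 0.16 in set 1 and -1.87 ± 0.02 and -2.21 ± 0.04 with pMYC. At KSUAT0040 it was -1.55 ± 0.05 and -2.21 ± 0.17 in set 1, and with pAPOBEC3F -1.42 ± 0.38 and -3.11 ± 0.76, the latter from the 13 RNA reads of the .fwd element. KSUAT0023 had the other order, -2.07 ± 0.06 as promoter and -1.55 ± 0.02 as enhancer in set 1 and -2.47 ± 0.11 and -1.36 ± 0.02 with pAPOBEC3F.

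KSUAT0014 had .rev higher too, but without a call under pGAPDH. It differed by -1.93 ± 0.09 and -1.90 ± 0.06 as promoter and enhancer in set 1, by -2.17 ± 0.12 and -2.05 ± 0.25 with pMYC and by -2.66 ± 0.09 and -2.10 ± 0.32 with pAPOBEC3F. With pGAPDH its replicates gave -0.27 and 0.25 as promoter and -0.17 and -0.47 as enhancer, neither of them called (adjusted p = 0.95 and 0.27). KSUAT0005, not measured in set 1, had .rev called higher in each of its 4 tables. It differed by -2.63 ± 0.35 (promoter) and -1.90 ± 0.64 (enhancer) with pMYC in set 2, and by -1.38 ± 0.03 and -0.75 ± 0.13 with pGAPDH. KSUAT0016 differed by -1.42 ± 0.11 with pGAPDH and -2.65 ± 0.01 with pAPOBEC3F as promoter, and KSUAT0020 by -2.52 ± 0.21 as promoter in set 1. At KSUAT0016 with pAPOBEC3F the standard error of the test was 0.11.

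Of the 35 loci measured in both orientations in all 4 promoter tables, 12 had .fwd called higher in all 4 (18.7% of all loci), 10 had .rev called higher in all 4 (9.98%) and 1 was never called (4.46%). At 4 loci (14.4% of all loci), named after their values were seen, the called direction differed between promoter tables: KSUAT0051, KSUAT0110, KSUAT0111 and KSUAT0114. At KSUAT0110 the difference was -0.37 and -0.16 in set 1 and 0.91 and 0.82 in set 2, both with pMYC. At KSUAT0051 it was -0.44 and -0.30 in set 1 and 0.71 and 0.94 in set 2 with pMYC, and -0.40 in both replicates with pAPOBEC3F. The differences between these tables were not tested. Among enhancer tables, 4 of 34 loci had .rev called higher in all 4 (1.99% of all loci), none had .fwd called higher in all 4 (0.664%), and 14 were never called (54.6%). By limma, KSUAT0022 was called with .fwd higher in the enhancer read-out of set 1 (0.13 in both replicates) and with .rev higher under pGAPDH (-0.24 and -0.62, adjusted p = 0.034), while its promoter difference was 0.79 ± 0.08 in set 1 and 0.77 ± 0.13 with pGAPDH.

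The orientation effect itself was tested between the read-outs, as an interaction over the 8 libraries of a minimal promoter and set. It differed at 43 of 59 KSUAT loci in set 1 (all loci 60.9%), 22 of 41 with pMYC in set 2 (24.7%), 38 of 63 with pGAPDH (46.8%) and 26 of 53 with pAPOBEC3F (25.4%). The effect was larger in size as promoter at 38, 20, 32 and 21 of these loci and larger as enhancer at 5, 2, 6 and 5. Among all called loci it was larger as promoter at 84.4%, 82.6%, 85.7% and 75.6%, against 88.4%, 90.9%, 84.2% and 80.8% of the called KSUAT loci, so the members' shares were near the background. With pAPOBEC3F the count was 15 without DNA library 2 of the promoter read-out, 17 without its DNA library 1 and 16 without DNA library 2 of the enhancer read-out. KSUAT0142 shows a direction that appeared in the promoter read-out alone in set 1: its .fwd minus .rev difference was -1.69 and -1.66 as promoter and 0.07 and -0.03 as enhancer, a change of -1.69 ± 0.10 (SE, adjusted p = 3.6e-08). With pAPOBEC3F its values were -1.72 and -1.76 against 0.52 and -0.39. At KSUAT0082 with pMYC the values were 2.14 and 2.19 against 0.21 and 0.30. At KSUAT0054 and KSUAT0157 the promoter effect was called and the enhancer effect was not. KSUAT0054 gave 0.97 and 0.96 as promoter and -0.37 and -0.32 as enhancer with pGAPDH, and KSUAT0157 gave 1.55 and 1.45 against -0.30 and -0.36 with pAPOBEC3F.

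In set 2 each library holds all 3 minimal promoters, so the RNA over DNA ratio of an element was compared between minimal promoters in reads of the same library. Every deposited value was a whole multiple of 1 step per column (100% of values, tolerance 0.02), and that step was taken as 1 read. That reading comes from the values alone, and the comparison between minimal promoters rests on it. The median member had 1.01 log2 units more RNA per DNA with pGAPDH than with pMYC in the promoter read-out, a 2.02-fold difference, and 90 of 103 members were called higher and 2 lower. Over all elements 97.5% were called higher and 0.483% lower, with a median of 2.21. Against pAPOBEC3F the median was 0.93, with 97 of 115 called higher and 1 lower (96.4% and 0.575% of all elements, median 2.75). As enhancers all 101 members were called higher with pGAPDH than with pMYC (99.6% of all elements higher and 0.0408% lower), with a median of 2.10 against 2.52 over all elements. All 115 were called higher with pGAPDH than with pAPOBEC3F (99.9% higher and 0% lower over all), with a median of 2.92 against 3.39. As enhancers the calls are thus near the background. As promoters members were called less often. There 11 of 103 members had no call against pMYC and 17 of 115 against pAPOBEC3F. Over all elements this was so for 50 of 2484 and 80 of 2609, with no test of that contrast. The members' median differences from pGAPDH were smaller than those of the median element.

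With each library's difference centred on its own median over all elements the direction turns. Taken between RNA and DNA libraries, these medians shift the zero by 2.03 for pGAPDH against pMYC in the promoter read-out, near but not equal to the median difference of 2.21 above. There 77 of 103 members were called lower and 11 higher with pGAPDH (33.9% and 46% of all elements). Against pAPOBEC3F, with a shift of 2.56, 95 of 115 were called lower and 9 higher (39% and 46.9%). As enhancers, with a shift of 2.43, 45 of 101 were called lower and 3 higher against pMYC (16.9% and 16.2%), and with a shift of 3.31, 42 of 115 lower and 2 higher against pAPOBEC3F (13.1% and 8.3%). The difference was smallest for the members most active with the other minimal promoter. With the members of the promoter read-out in 3 groups by their pMYC level, the median difference from pMYC was 2.05 in the low group, 1.01 in the middle group and 0.29 in the high group (34, 35 and 34 members). Grouped by the pAPOBEC3F level the differences from pAPOBEC3F were 2.27, 0.93 and 0.20 (38, 39 and 38 members). As enhancers, grouped by the pMYC level, they were 2.60, 2.10 and 1.53 (33, 35 and 33 members). The grouping uses a value that also enters the difference, so these medians are a description.

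Single members show the range, in log2 ratios of reads. KSUAT0140.rev gave -0.67 and -0.37 with pGAPDH and -3.82 and -3.98 with pMYC as promoter, a difference of 3.38 ± 0.33 (SD, n = 2). KSUAT0151.rev gave 0.86 and 1.05 with pGAPDH against -2.49 and -1.77 with pMYC, and KSUAT0153.rev -0.19 and 0.02 against -3.23 and -2.91. At the other end KSUAT0082.fwd gave 1.71 and 1.99 with pGAPDH and 1.61 and 1.78 with pMYC, a difference of 0.16 ± 0.07 (adjusted p = 0.010). KSUAT0010.rev, at 1.66 and 1.77 against 1.91 and 2.12, and KSUAT0035.rev, at 1.26 and 1.55 against 1.84 and 1.87, were the 2 members called lower with pGAPDH. Against pAPOBEC3F the 1 member called lower was KSUAT0042.rev, at 1.85 and 1.97 with pGAPDH and 2.19 and 2.24 with pAPOBEC3F (adjusted p = 0.0018). As enhancers KSUAT0001.rev and KSUAT0083.rev had the smallest differences, at 1.71 and 1.86 with pGAPDH against 1.31 and 1.43 with pMYC, and at 1.78 and 1.93 against 1.23 and 1.53.

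Between pAPOBEC3F and pMYC the read-outs parted. As promoters the median member differed by -0.06 (pAPOBEC3F minus pMYC), with 20 of 92 members called higher and 31 lower with pAPOBEC3F. Over all elements 5.67% were called higher and 63.7% lower, with a median of -0.50. The calls moved to 29 without DNA library 1 of the promoter read-out and 30 without its DNA library 2. Centred library by library in the same way, which shifts the zero by -0.49, 63 members were called higher and 5 lower (26.5% and 19.4% of all elements). As enhancers 78 of 90 were called lower and 0 higher by limma (81.5% and 0.0889% of all elements), and 0 were higher at an unadjusted p under 0.05. The median was -0.92, against -0.87 over all elements. Centred library by library, with a shift of -0.89, 0 members were called either way by limma (0.0445% of all elements higher and 0% lower), and 4 were higher and 5 lower at an unadjusted p under 0.05. As promoters KSUAT0147.fwd (-0.63 and -0.52 with pAPOBEC3F, -2.58 and -1.58 with pMYC) and KSUAT0051.rev (1.59 and 1.55 against 0.66 and 0.75) were the highest with pAPOBEC3F relative to pMYC. KSUAT0156.fwd (-2.83 and -2.63 against -1.45 and -1.50) and KSUAT0136.fwd (-3.27 and -2.93 against -2.05 and -1.75) were the lowest.

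The sets gave similar orders with pMYC. In the promoter read-out r across the 95 members measured in both was 0.966 and rho 0.969, with medians of 2.65 in set 1 and 2.11 in set 2. In the enhancer read-out r was 0.938 and rho 0.941 over 94 members, with medians of 1.02 and 0.78. The value of set 1 was the larger for 92 of the 95 and 79 of the 94 members. The pools were built, electroporated and normalized separately, so that a difference in level between them has no test here. Over all elements r was 0.968 and 0.907. Called higher in both sets were 85 members as promoters and 70 as enhancers (43.7% and 34.1% of all elements), in set 1 alone 6 and 15 (7.6% and 15% of all), and in set 2 alone 0 and 0 (3.06% and 2.13% of all). KSUAT0022, whose 2 orientations were both called higher as promoters in all 4 tables, illustrates the match: KSUAT0022.fwd gave 3.68 and 3.57 in set 1 and 3.16 and 3.16 in set 2 as promoter, and 1.65 in both replicates and 1.19 and 1.35 as enhancer. KSUAT0022.rev gave 2.94 and 2.72 and 2.28 and 2.24 as promoter, and 1.52 in both replicates and 0.95 and 1.21 as enhancer.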

How the data were processed

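Barcode libraries of RNA and plasmid DNA from K-562 were analysed as tables of 1 row per element. Per the file headers, each table holds DNA and RNA signal values of 2 replicates, with log2 fold changes, p-values and moderated test scores deposited by the authors from limma. The submitters' processing notes name fastp, edgeR, limma and hg38 without roles, and how reads were assigned to elements is not given in the sources used here. Every signal value was a whole multiple of 1 step per column (100% of values, tolerance 0.02), as reads divided by the authors' factor would be. The basis of that factor is not given, so the zero of the RNA over DNA ratio is the authors' own. Total depth was 200722 to 10880944 reads per library and table, and reads are not independent molecules.

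From the steps, 0.5 reads were added before log2, and elements with under 10 reads in a DNA library were left out. Tests used limma 3.58.1 (R 4.3.3) with a mean-variance trend, over all elements or loci, with Benjamini-Hochberg adjustment and a threshold of 0.05. They compared RNA with DNA, .fwd with .rev, that difference between read-outs, and minimal promoters within a library. The last was planned only if reads could be recovered: the steps gave whole numbers throughout, but a second, coded test of the steps did not accept the values as reads, so these tests depend on that reading. On simulated data the RNA over DNA and orientation tests were run for every table, and the read-out test for pMYC of both sets only. The minimal promoter comparison was run there for pGAPDH against pMYC only, with centred values and a normal p-value in place of limma's. The outcomes of these runs are not given here. Whether the replicate numbers pair RNA with DNA is not given, and deviations of same-numbered values did not correlate, so no block was used in the main tests. Named were the members at the extremes and middle of each measure and both orientations of KSUAT0022 and KSUAT0092. The members and lists were chosen with earlier results of these data known. Substituted versions of KSUAT elements, 12 in set 1, were left out, and the 3 plasmid index libraries were not used here.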

Additional observations from a re-analysis of the deposited data

Results flagged for a closer look

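The differences given here are those of the named loci and members whose test of the difference itself passed (limma, adjusted p under 0.05), in log2 units. For the orientation effect (.fwd minus .rev), promoter minus enhancer read-out, the differences in set 1 were 2.34 at KSUAT0092 (adjusted p = 3.0e-07), -1.81 at KSUAT0020 (1.8e-06) and -1.69 at KSUAT0142 (3.6e-08). With pMYC of set 2 they were 2.07 at KSUAT0140 (0.013), 1.96 at KSUAT0058 (9.1e-07) and 1.91 at KSUAT0082 (9.1e-08). With pGAPDH they were 1.42 at KSUAT0082, 1.31 at KSUAT0054 and -1.29 at KSUAT0016, and with pAPOBEC3F 1.83 at KSUAT0157, -1.81 at KSUAT0142 and 1.80 at KSUAT0015. Each of these differences had the same sign in both replicates. At KSUAT0140 the enhancer replicates were -0.06 and -1.06, so its size is loose.

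Between minimal promoters, the enhancer differences with the greatest distance from the median member were, for pAPOBEC3F minus pMYC, -2.02 at KSUAT0024.rev, -1.70 at KSUAT0057.fwd and -1.68 at KSUAT0040.fwd on one side and -0.56 at KSUAT0153.fwd, -0.56 at KSUAT0002.fwd and -0.58 at KSUAT0142.fwd on the other. These tests were against no difference, where 81.5% of all elements were called lower. They did not test the distance from the median member. Centred on the median of all elements, 0 members were called higher and 0 lower for this enhancer pair. KSUAT0024.rev and KSUAT0040.fwd rest on few enhancer RNA reads with pAPOBEC3F, where their replicates disagreed. In the promoter read-out of that pair the corresponding differences were -1.25 at KSUAT0156.fwd, -1.20 at KSUAT0136.fwd and -0.90 at KSUAT0002.rev, and 1.51 at KSUAT0147.fwd, 0.87 at KSUAT0051.rev and 0.76 at KSUAT0110.rev. KSUAT0051.rev and KSUAT0110.rev belong to the loci whose orientation effect with pMYC had opposite calls in the sets.

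For pGAPDH minus pAPOBEC3F the enhancer differences were smallest at KSUAT0001.rev (1.16), KSUAT0083.rev (1.19) and KSUAT0016.rev (1.39) and largest at KSUAT0024.rev (4.04), KSUAT0106.fwd (3.94) and KSUAT0040.fwd (3.90), 3 members with few RNA reads under pAPOBEC3F. The promoter differences were -0.30 at KSUAT0042.rev, 0.15 at KSUAT0083.rev and 0.19 at KSUAT0029.fwd, and 3.67 at KSUAT0151.rev, 3.31 at KSUAT0156.fwd and 3.29 at KSUAT0156.rev. For pGAPDH minus pMYC the enhancer differences were 0.41 at KSUAT0001.rev, 0.48 at KSUAT0083.rev and 0.86 at KSUAT0035.rev, and 3.51 at KSUAT0140.fwd, 3.16 at KSUAT0151.rev and 2.98 at KSUAT0122.fwd. The promoter differences of that pair were -0.45 at KSUAT0035.rev, -0.30 at KSUAT0010.rev and 0.16 at KSUAT0082.fwd, and 3.38 at KSUAT0140.rev, 3.08 at KSUAT0151.rev and 2.99 at KSUAT0153.rev.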

How the results depend on the processing

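Among the settings run, 325 values of counts and medians moved little and 57 moved, and for single loci and members 1796 values kept direction and call, 103 lost the call, 10 gained it and 12 reversed. Table order below is set 1, then pMYC, pGAPDH and pAPOBEC3F of set 2. Requiring a difference of at least 1, members called higher as enhancers were 64, 41, 1 and 32, and 25 as promoters with pGAPDH. Over all elements, called or not, ratios of at least 1 were reached by 392 of 1529, 399 of 2544, 52 of 3035 and 357 of 2679 as enhancers. As promoters with pGAPDH 197 of 3055 reached it. Orientation calls were 26, 17, 10 and 22 as promoters (12.1%, 12.1%, 6.81% and 13.9% of all loci). As enhancers they were 8 in set 1 and 0 with pGAPDH (20 of 640 and 5 of 1424 over all loci). Read-out differences of orientation were 14, 13, 8 and 15. Minimal promoter calls were 53 and 55 for pGAPDH against pMYC and pAPOBEC3F as promoters, and 3 and 37 for pAPOBEC3F against pMYC as promoters and enhancers. Where no share over all loci or elements is given in this section, the counts show only how a setting moves the members' calls. They are not read as a trait of the class. At an adjusted p under 0.01 there were 15 read-out differences with pAPOBEC3F, 26 promoter calls between pAPOBEC3F and pMYC, and 5 enhancer orientation calls with either pGAPDH or pAPOBEC3F. Without the trend the latter was 3 with pGAPDH.

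Centred enhancer calls between minimal promoters were 0 for pAPOBEC3F against pMYC, 44 for pGAPDH against pAPOBEC3F and 48 against pMYC. Centring reversed KSUAT0153.fwd (0.33), KSUAT0002.fwd (0.33) and KSUAT0142.fwd (0.31) for pAPOBEC3F minus pMYC, KSUAT0001.rev (-2.15), KSUAT0083.rev (-2.11) and KSUAT0016.rev (-1.91) for pGAPDH minus pAPOBEC3F and KSUAT0001.rev (-2.01), KSUAT0083.rev (-1.95) and KSUAT0035.rev (-1.56) for pGAPDH minus pMYC as enhancers. As promoters it reversed KSUAT0083.rev (-2.41), KSUAT0029.fwd (-2.37) and KSUAT0082.fwd (-1.87), since subtracting the median moves the zero. Medians less that of all elements were 2.29, 1.78, 0.51 and 2.44 as promoters and 0.89, 0.56 and 0.66 as enhancers outside pGAPDH. Replicate 1 alone gave promoter medians of 2.07 (pMYC) and 2.61 (pAPOBEC3F), and replicate 2 alone 2.05 and 2.63, with enhancer medians of 1.07, 0.73, 0.11 and 0.68.

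Leaving out 1 library, members called higher ranged over 109 to 114, 88 to 94, 86 to 88 and 102 to 104 as promoters and 106 to 111, 62 to 76, 22 to 47 and 54 to 86 as enhancers. Orientation calls ranged over 45 to 57, 29 to 37, 43 to 50 and 35 to 46, and 18 to 38, 8 to 17, 2 to 19 and 3 to 23. Read-out differences ranged over 39 to 47, 15 to 27, 32 to 41 and 15 to 33. Minimal promoter calls ranged over 88 to 94 and 99 to 101 (pGAPDH, pMYC), 92 to 102 and 115 to 115 (pGAPDH, pAPOBEC3F), and 29 to 64 and 54 to 83 (pAPOBEC3F, pMYC) as promoters and enhancers. With the replicate block, members called higher were 112, 91, 90 and 103 as promoters and 110, 73, 47 and 75 as enhancers, and no count moved by 1.5 times. Deviations of same-numbered DNA and RNA values correlated at -0.06 to 0.03. Such values cannot tell whether the numbers pair the libraries, since independent read noise would also give them. The planned edgeR test was not run, because the values were not accepted as reads. Reads were fewest in the pAPOBEC3F and pMYC enhancer tables of set 2. The cause of the moves was not tested.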
